A study of Mus musculus with 8 samples.

Results

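The Rab GTPases are a family of small GTP-binding proteins that direct membrane traffic. A Rab bound to GTP sits on one kind of membrane and recruits effectors that move, tether or fuse vesicles, and hydrolysis of GTP followed by extraction from the membrane ends the cycle. Rab3 and Rab27 proteins act in regulated secretion, with Rab3 on synaptic vesicles of neurons, while most other members serve the endoplasmic reticulum, Golgi, endosomes and lysosomes of every cell. The members described here were chosen by gene symbol alone: 58 of the 23997 symbols in the files matched Rab followed by a number and up to 1 letter and 1 further digit. No expression value chose a member. The family and its division into the 6 Rab3 and Rab27 genes and the 52 others were, however, proposed with earlier results of these libraries known, so that division is described without a test.

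RNA was measured in mouse neural stem/precursor cells, the dividing cells that give rise to neurons and glia, prepared from the telencephalon at E11.5 from the ICR strain and grown with 10 ng/mL basic fibroblast growth factor. The stage label gives E11 for the same culture. Control libraries (n = 3) were compared with 3 libraries from Nfia-transduced cells, collected 3 days after transduction. Nfia encodes a DNA-binding factor of the nuclear factor I family. The sources used here do not give the vector, the treatment of the control cells or the share of cells transduced. Nor do they say whether the libraries came from separate cultures, so the spread that the p-values rest on may be technical.

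Levels are FPKM, fragments scaled to transcript length and to the mapped fragments of the library, which allows genes of different length to be set side by side. A log2 difference is the Nfia mean less the control mean of log2(FPKM + 1), so changes of weakly expressed genes come out too small. Adjusted p-values come from limma over the 12537 genes whose mean reached 1 FPKM, and a gene was called at an adjusted p under 0.05. The Nfia transcript itself lay at 19.8, 23.9 and 22.2 FPKM in control and at 69.0, 85.6 and 103.5 FPKM in Nfia-transduced libraries, which fits the labels. Library totals were 474010 to 511700 FPKM, the depth relative to control 1 was 0.760 to 1.11, and the absolute depth is unknown. Neuron markers, which include the neuronal tubulin gene Tubb3 and the synaptic vesicle genes Syp and Syt1, were present in both groups, and 9 of 10 fell with Nfia. Their summed level was 1417 to 1532 FPKM in control and 848 to 867 FPKM in Nfia libraries, and none was at 0. The neural precursor markers Nes, Sox2, Vim and Fabp7 were abundant. Of the 7 precursor markers 3 rose (Nes, Vim and Slc1a3) and 2 fell (Hes5 and Pax6), while Sox2 and Fabp7 were not called. Of the astrocyte markers 2 of 4 tested fell (summed level 80.8 to 87.5 in control and 75.2 to 86.2 FPKM with Nfia), as did 2 of 5 oligodendrocyte lineage markers (20.0 to 23.0 and 13.2 to 15.9 FPKM). None of the 5 microglia markers reached the filter (1.16 to 1.57 and 0.791 to 1.11 FPKM). The microglia gene Aif1 was at 0.055, 0 and 0 FPKM in control and at 0 in all Nfia libraries. Of the endothelium markers Cldn5 alone was tested, and it fell (2.39 to 3.35 FPKM in control and at most 1.97 FPKM with Nfia over the list of 5). None of the 5 mesenchyme markers passed (4.64 to 13.6 and 3.78 to 15.1 FPKM), and all 5 were lowest in replicate 1 of both groups. Their gene Col3a1 was at 1.32, 4.71 and 5.02 FPKM in control and at 1.19, 5.54 and 4.84 FPKM with Nfia.

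The upstream sequences of 3 members are shown because these genes gave different answers in the comparison: Rab3a fell, its paralog Rab3b did not pass the test, and Rab13 rose. Each run holds the 250 bases before the outermost RefSeq start in GRCm38.p6, 5′ to 3′ on the plus strand, from chr8:70754453-70754702 for Rab3a, chr4:108878820-108879069 for Rab3b and chr3:90213465-90213714 for Rab13. Capitals mark matches to the half-site of nuclear factor I proteins (TTGGC, or GCCAA on the other strand) and to the TATA box letters TATAAA.
Rab3a: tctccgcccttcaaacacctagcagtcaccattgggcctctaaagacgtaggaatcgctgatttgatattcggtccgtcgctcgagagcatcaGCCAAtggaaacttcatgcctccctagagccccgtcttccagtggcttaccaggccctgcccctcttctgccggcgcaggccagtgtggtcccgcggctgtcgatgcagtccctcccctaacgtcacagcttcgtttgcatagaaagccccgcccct
Rab3b: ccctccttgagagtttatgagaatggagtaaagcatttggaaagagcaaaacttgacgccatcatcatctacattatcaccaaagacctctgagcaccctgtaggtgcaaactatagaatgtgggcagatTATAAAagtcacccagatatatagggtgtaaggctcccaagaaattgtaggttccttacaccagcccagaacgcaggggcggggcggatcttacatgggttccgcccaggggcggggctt
Rab13: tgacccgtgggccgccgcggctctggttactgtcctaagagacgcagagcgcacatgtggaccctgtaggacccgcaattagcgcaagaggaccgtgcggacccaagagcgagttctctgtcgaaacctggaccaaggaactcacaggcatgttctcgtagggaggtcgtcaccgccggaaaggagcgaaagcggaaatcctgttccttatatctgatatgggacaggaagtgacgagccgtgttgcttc

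The printed Rab3a window held 1 half-site, and the printed windows of Rab3b and Rab13 held 0. Rab3a and Rab13 each had a second start in the table, inside the gene's span, with 1 half-site in its window. By symbol, 46 of the 58 members had at least 1 window in the RefSeq table. Half-sites on either strand were found in 25 of their 58 windows (43.1%), in 9 of the 20 windows of members that fell, in 1 of the 2 windows of members that rose and in 12 of the 29 windows of members that did not pass the test. Among all 32851 windows of the table the share was 41.5%. A gene can have several windows. Those counted came from 13 genes that fell, 6 of them with a half-site, and from 1 gene that rose, Rab13. The windows of members that did not pass came from 26 genes, 10 of them with a half-site. A pair of half-sites facing each other across 5 bases (TTGGC, 5 bases, then GCCAA) was in 0 Rab windows and in 12 of all windows (0.0365%). TATAAA stood in 1 Rab window, that of Rab3b, against 7.59% of all windows. The median GC content was 60.2% in Rab windows and 52.4% in all. These matches describe letters in a window and do not show binding.

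Across the family, more members fell than rose. Of the 58 members, 48 passed the filter on low values, 16 of them fell (33.3% of those tested) and 2 rose (4.17%). Over all genes tested, 15.1% fell and 16.1% rose. The median difference was -0.09 over the 48 members and 0.01 over all genes. In 22 of the 48 (45.8%) the Nfia libraries all lay below the control libraries and in 7 (14.6%) all above, where the shares over all genes tested were 22.9% and 24.7%. Over all 58 members the numbers were 24 and 8, for which no share over all symbols was computed. The changes were small on the scale of log2(FPKM + 1). There 0 of the 18 called members moved by 1 or more, and 145 of all 3918 called genes did. The median size was 0.31 for the called members and 0.34 for all called genes. In FPKM without the added 1, the mean of the low member Rab38 was 2.05-fold higher with Nfia. Without Nfia replicate 2 the number of members that fell was 10, while 10.2% of all genes fell. Without replicate 1 of both groups, an alternative added after the data were seen, 7 fell and 1 rose, while over all genes 8.73% fell and 9.55% rose. With 1 library left out, 1 in place of 2 members rose without control replicate 2 or 3 or without Nfia replicate 2 or 3. In those fits 10.5% to 13.8% of all genes rose. In bulk RNA a smaller share of cells that express a gene and less RNA per cell cannot be told apart.

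**Figure D1:**
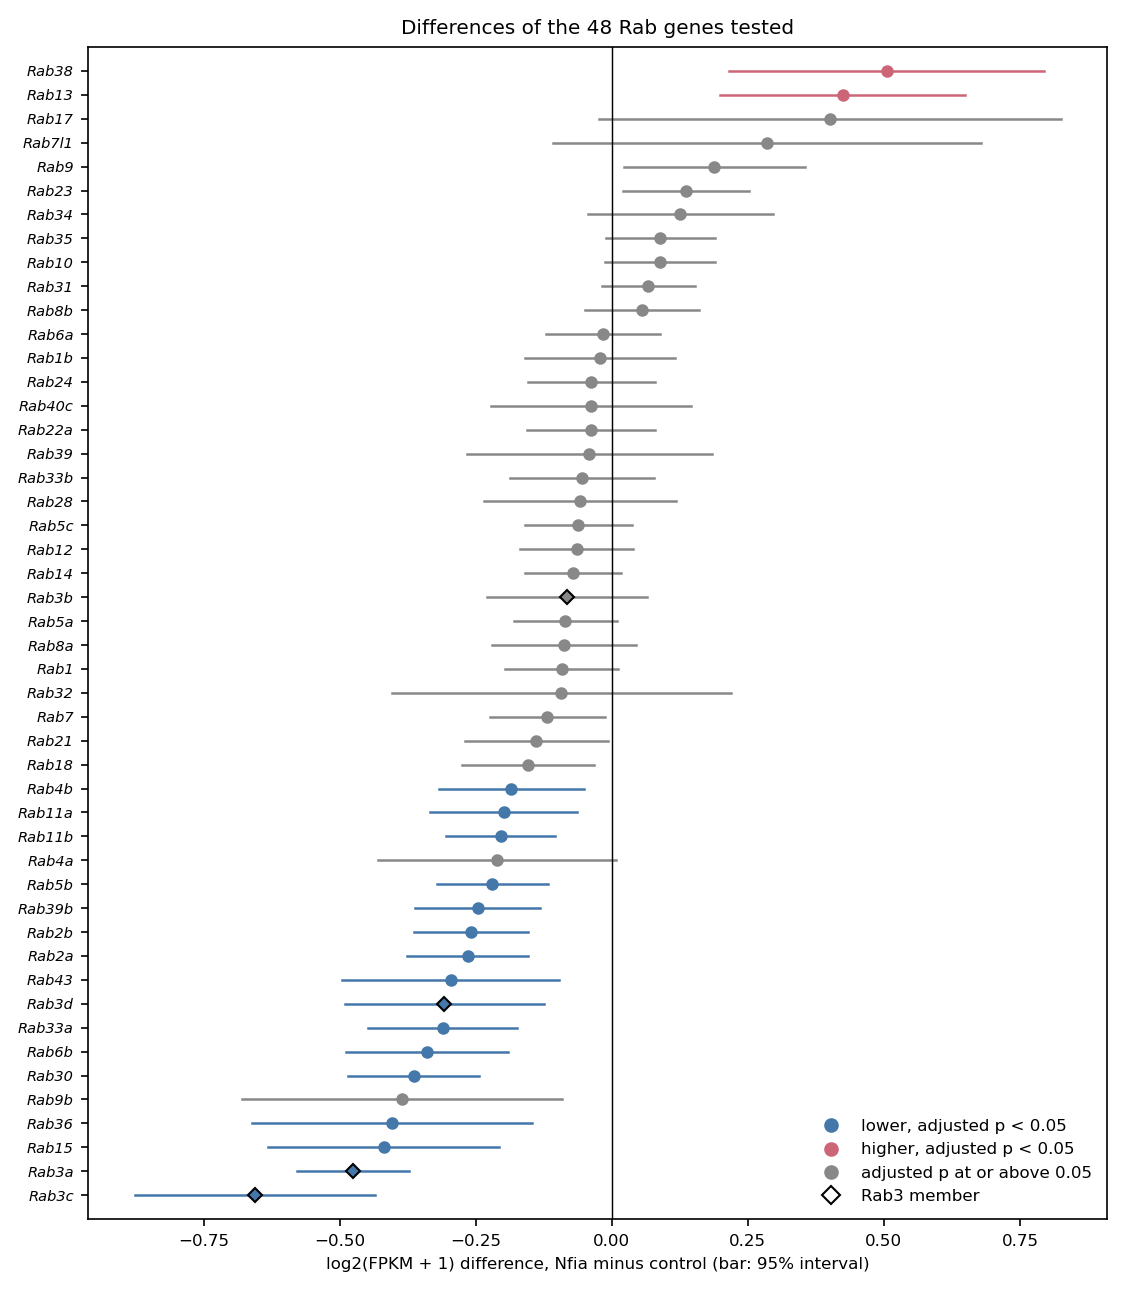
Differences of the 48 Rab genes tested, as Nfia minus control in log2(FPKM + 1), with 95% intervals from limma; blue points fell, red points rose, grey points did not pass the test, and diamonds are Rab3 genes. Rab3c and Rab3a stand at the lower end with -0.66 and -0.48, and the red points are Rab13 and Rab38.

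Among the Rab3 and Rab27 genes, 3 of the 4 tested fell (75%, against 15.1% of all genes), 0 rose, and their median difference was -0.39. Rab3a, the main Rab of synaptic vesicles in brain, was at 60.2, 58.0 and 56.7 FPKM in control and at 40.8, 43.0 and 41.1 FPKM in Nfia libraries. All Nfia libraries lay below all control libraries, and the mean fell by 28.6%, with 58.3 ± 1.79 FPKM in control and 41.6 ± 1.21 FPKM with Nfia (SD, n = 3 per group; difference -0.48, SE 0.04, adjusted p = 0.000626 by limma). In GRCm38 it spans bases 70754703 to 70758608 of chromosome 8. Rab3c, a close relative also found on synaptic vesicles, was at 13.2, 11.9 and 13.9 FPKM in control and at 6.86, 8.47 and 8.42 FPKM with Nfia. These groups did not overlap either, and Rab3c had the largest decrease among the members tested: its mean fell by 39.2% (log2 difference -0.66, SE 0.09, adjusted p = 0.00318). It spans bases 110054187 to 110280996 of chromosome 13, which overlap the predicted gene Gm41057.

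Rab3d, known from secretory granules of exocrine cells, was low, with 3.55, 3.99 and 3.82 FPKM in control and 2.93, 2.66 and 3.01 FPKM with Nfia. Every Nfia library was below every control library (log2 difference -0.31, SE 0.08, adjusted p = 0.0232), but significance was lost without control replicate 2 or 3 or Nfia replicate 2 (adjusted p = 0.0695, 0.0721 and 0.0809). Rab3b, the second most abundant of the group, was at 21.0, 22.9 and 21.5 FPKM in control and at 21.2, 18.9 and 21.5 FPKM with Nfia. Its groups overlapped and its difference of -0.08 did not pass the test (95% interval -0.23 to 0.07, adjusted p = 0.352). Rab27a, which carries melanosomes and lytic granules, and Rab27b, of secretory granules, were below the filter. Rab27a was listed at 0.708, 0.324 and 0.571 FPKM in control and at 0.193, 0.191 and 0.316 FPKM with Nfia, so the groups did not overlap. Rab27b was listed at 0.0776, 0.145 and 0.132 FPKM in control and at 0.180, 0.183 and 0.108 FPKM with Nfia, and these groups did overlap. The Rab27 genes were therefore at trace levels in these cells, and the regulated secretion genes described here are in effect the Rab3 genes.

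The 6 Rab3 and Rab27 genes together held 4.95% ± 0.0379 of the summed Rab FPKM in control and 3.96% ± 0.0946 with Nfia (SD, n = 3 per group). Rab3a alone held 2.99%, 2.97% and 2.91% in control and 2.19%, 2.32% and 2.24% in Nfia libraries, with no overlap. The summed FPKM of all 58 members was 1944 to 2012 in control and 1832 to 1865 with Nfia, a change of -6.03% in the mean. Of the 44 other members tested, 13 fell (29.5%, against 15.1% of all genes) and 2 rose (4.55%, against 16.1%), with a median difference of -0.08. Decreases were thus found in both divisions of the family, and whether the divisions differ was not tested. The neuron markers fell in the same libraries as Rab3a, Rab3c and Rab3d, with a median difference of -0.58, and their part in these decreases was not tested.

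**Figure D2:**
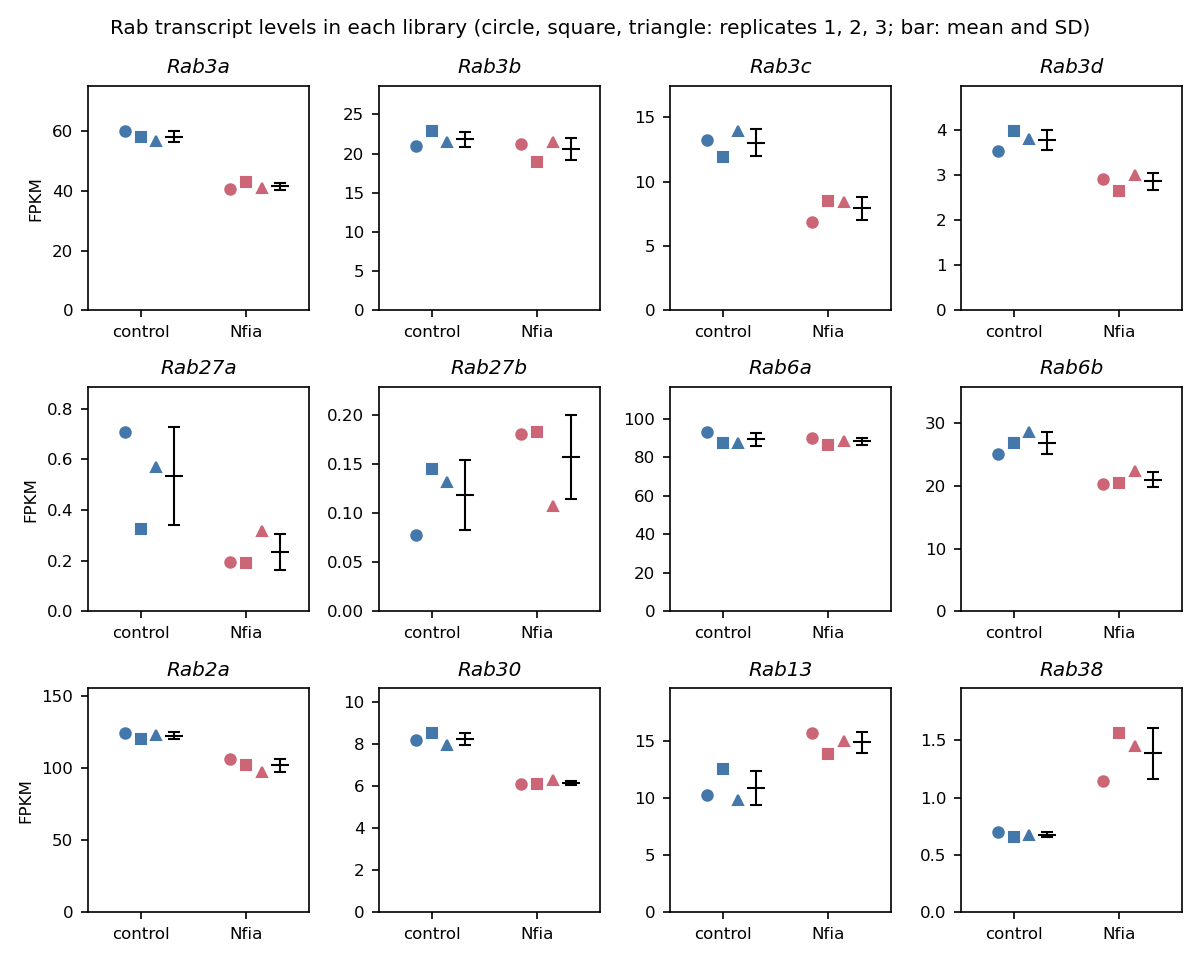
FPKM of 12 Rab genes in each library, with control in blue, Nfia in red, replicates as circle, square and triangle, and the mean ± SD as a bar beside each group; each axis starts at 0. Rab3a, Rab3c and Rab3d lie lower in all Nfia libraries, Rab3b and Rab6a overlap, and Rab13 and Rab38 lie higher in all Nfia libraries.

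Ratios within a library compare paralogs directly. The ratio of Rab3a to Rab3b in a library was 2.87, 2.54 and 2.63 in control and 1.93, 2.27 and 1.91 with Nfia, with no overlap. The ratio of Rab3b to Rab3c was 1.59, 1.92 and 1.55 in control and 3.09, 2.24 and 2.55 with Nfia. These ratios were among 18 pairs of tested members that share a number. In 10 of the 18 the groups did not overlap. Each of those had an exact permutation p of 0.1 (two-sided), the smallest that 3 against 3 libraries allow, so that no pair passed (smallest adjusted p = 0.18). Some pairs share a member, and no share without overlap was computed over other pairs of genes. Of all single genes tested, 24.7% lay above and 22.9% below without overlap, so the 10 pairs are not read as a trait of Rab paralogs. The paralog ratios given in the next paragraphs are from these pairs and are descriptions.

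**Figure D3:**
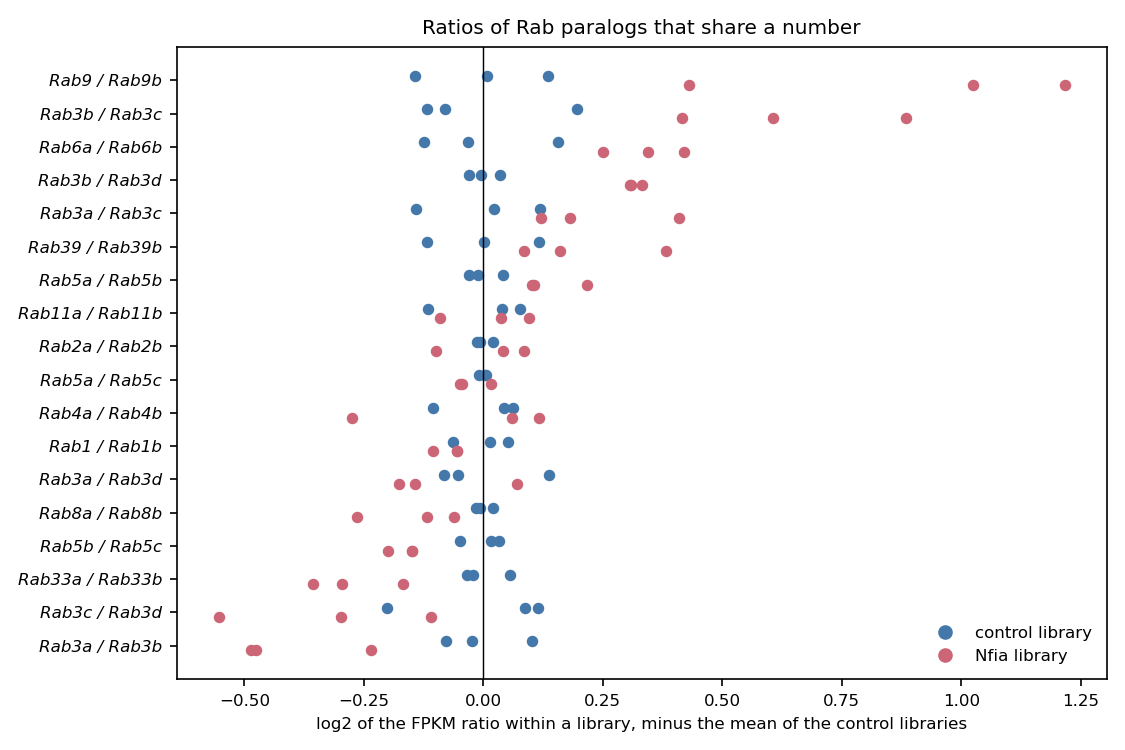
FPKM ratio of 2 Rab paralogs within each library on a log2 scale, set to 0 at the mean of the control libraries; each point is a library, blue for control and red for Nfia. The Nfia points of Rab9 over Rab9b, Rab3b over Rab3c and Rab6a over Rab6b lie to the right of all control points, and those of Rab3a over Rab3b to the left.

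Genes of the Golgi and endoplasmic reticulum held the largest number of decreases. Of 13 tested, 7 fell (53.8%, against 15.1% of all genes), 0 rose, and all 13 differences were below 0, with a median of -0.26. Of these 7 calls, those of Rab36 and Rab43 were each lost in 5 of the 6 fits that left out 1 library. Rab2a, which acts between the Golgi and the endoplasmic reticulum, was among the 5 members with a mean of at least 100 FPKM, at 125, 120 and 123 FPKM in control and at 106, 103 and 97.3 FPKM with Nfia. Its groups did not overlap (log2 difference -0.26, adjusted p = 0.00688), and its paralog Rab2b also fell (-0.26, adjusted p = 0.00603), with 17.4, 16.4 and 17.1 FPKM in control and 13.8, 13.8 and 14.4 FPKM with Nfia. The Rab2b span overlaps Tox4, and the sources used here do not say whether reads were counted by strand. The ratio of Rab2a to Rab2b was 6.75 to 7.68 over the 6 libraries with overlapping groups.

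Of the Rab6 genes, Rab6b fell and Rab6a did not pass the test. Rab6b, the form enriched in brain, was at 25.2, 26.8 and 28.6 FPKM in control and at 20.2, 20.5 and 22.3 FPKM with Nfia (log2 difference -0.34, SE 0.06, adjusted p = 0.00818). Rab6a, the widely expressed form that controls traffic at the Golgi, was at 93.1, 87.2 and 87.3 FPKM in control and at 89.9, 86.4 and 88.2 FPKM with Nfia. The groups of Rab6b did not overlap and those of Rab6a did (difference -0.02, 95% interval -0.12 to 0.09, adjusted p = 0.812). The ratio of Rab6a to Rab6b was 3.05 to 3.70 in control and 3.95 to 4.44 with Nfia.

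Rab33a, a Golgi Rab expressed in neurons, fell, with means of 13.7 ± 0.412 FPKM in control and 10.9 ± 0.714 FPKM with Nfia (difference -0.31, adjusted p = 0.00827). Its paralog Rab33b, which binds the autophagy protein Atg16l1, was at 7.67 ± 0.436 and 7.34 ± 0.0236 FPKM and did not pass the test (95% interval -0.19 to 0.08). Rab30, a Golgi Rab, fell, with means of 8.24 ± 0.281 FPKM in control and 6.18 ± 0.0953 FPKM with Nfia (difference -0.36, SE 0.05, adjusted p = 0.00298), the smallest adjusted p outside Rab3a. Rab43 and Rab36 also fell, with differences of -0.30 and -0.40 (adjusted p = 0.0359 and 0.0302). The fits that lost them left out a control library or Nfia replicate 1 or 2 (adjusted p = 0.0523 to 0.113).

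Some abundant members of this group did not pass the test. Rab1, listed under that symbol and read here as the gene now called Rab1a, which carries vesicles from the endoplasmic reticulum to the Golgi, was at 151, 147 and 140 FPKM in control and at 138, 137 and 136 FPKM with Nfia (difference -0.09, adjusted p = 0.155). Rab1b was at 124 ± 8.65 and 122 ± 2.55 FPKM with overlapping groups. Rab18, of the endoplasmic reticulum and lipid droplets, lay just outside the threshold (difference -0.15, adjusted p = 0.0597).

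Of 14 tested genes of early and recycling endosomes, 5 fell (35.7%, against 15.1% of all genes) and 0 rose, with a median difference of -0.11. Rab15, an endosomal Rab enriched in brain, was at 4.55, 4.13 and 5.14 FPKM in control and at 3.08, 3.04 and 3.44 FPKM with Nfia (log2 difference -0.42, SE 0.09, adjusted p = 0.0135). Its groups did not overlap, and the call ended without Nfia replicate 2 (adjusted p = 0.0508). Rab5b, one of 3 Rab5 genes that drive fusion of early endosomes, fell, with means of 28.2 ± 0.382 FPKM in control and 24.1 ± 0.921 FPKM with Nfia (difference -0.22, adjusted p = 0.00975), and its span overlaps Pmel. Rab5c, the most abundant of the 3, was at 138 ± 2.26 and 132 ± 3.65 FPKM and did not pass (adjusted p = 0.301), and neither did Rab5a (difference -0.09, adjusted p = 0.146). The ratio of Rab5b to Rab5c was 0.198 to 0.210 in control and 0.179 to 0.185 with Nfia, without overlap.

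Both Rab11 genes, which mark recycling endosomes, fell. Rab11a went from 74.3 ± 4.36 to 64.6 ± 2.56 FPKM and Rab11b from 20.3 ± 0.498 to 17.5 ± 0.453 FPKM (log2 differences -0.20 for each, adjusted p = 0.0374 and 0.0121). Rab4b, of fast recycling, had the called difference nearest to the threshold (-0.18, adjusted p = 0.0453). The calls of Rab11a and Rab4b each ended in 5 of the 6 fits that left out 1 library, and that of Rab11b without Nfia replicate 2 (adjusted p = 0.0525). Rab14, Rab31, Rab35, Rab21, Rab22a, Rab4a and the epithelial Rab17 did not pass.

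No gene of late endosomes and lysosomes fell and 1 of 8 rose (12.5%, against 16.1% of all genes). Rab38, which serves the biogenesis of melanosomes and related organelles, was at 0.699, 0.653 and 0.678 FPKM in control and at 1.14, 1.57 and 1.45 FPKM with Nfia. Its mean reached the filter of 1 FPKM only through the Nfia libraries. Its count among the members that rose in the main fit therefore owes to the group in which it was high. With no filter on low values it was also called higher (adjusted p = 0.0227 by limma). The mean was 2.05-fold higher with Nfia (log2 difference 0.50, SE 0.12, adjusted p = 0.0206). Leaving out control replicate 2 or 3 removed the call (adjusted p = 0.0516 and 0.0562), and without Nfia replicate 2 or 3 the gene fell below the filter and was not tested. Rab7, which governs traffic to the lysosome, was the most abundant member, at 174, 181 and 172 FPKM in control and at 156, 165 and 164 FPKM with Nfia. Its groups did not overlap but its difference of -0.12 did not pass (adjusted p = 0.0877).

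Rab9, of transport from late endosomes to the Golgi, and its paralog Rab9b had differences of opposite sign. Rab9 was at 38.1, 33.8 and 32.5 FPKM in control and at 39.9, 41.8 and 37.6 FPKM with Nfia (difference 0.19, adjusted p = 0.0839). Rab9b was at 1.63, 1.58 and 1.69 FPKM in control and at 0.920, 0.845 and 1.31 FPKM with Nfia (difference -0.39), the uncalled member nearest to the threshold (adjusted p = 0.0540). Neither passed, and the ratio of Rab9 to Rab9b was 19.3 to 23.4 in control and 28.7 to 49.4 with Nfia. Rab12, Rab24, Rab32 and Rab7l1, now named Rab29, had differences of -0.06, -0.04, -0.09 and 0.29 and did not pass.

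Among genes of delivery to the plasma membrane, 1 of 4 tested rose (25%, against 16.1% of all genes) and 0 fell. Rab13, which acts at tight junctions and in the outgrowth of cell processes, was at 10.3, 12.5 and 9.79 FPKM in control and at 15.7, 13.9 and 15.0 FPKM with Nfia. All Nfia libraries lay above all control libraries (log2 difference 0.42, SE 0.09, adjusted p = 0.0158), and the call ended without control replicate 1 (adjusted p = 0.0519). It also ended when genes of any level were tested (adjusted p = 0.0744). Rab10, of exocytic transport, was at 90.9 ± 1.51 and 96.7 ± 3.37 FPKM and did not pass (difference 0.09, adjusted p = 0.157), and neither did Rab8a or Rab8b.

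The 3 cilium genes did not pass. Rab23, an inhibitor of Hedgehog signalling, was at 8.92, 9.09 and 8.98 FPKM in control and at 9.88, 10.4 and 9.66 FPKM with Nfia, so every Nfia library was higher (difference 0.14, adjusted p = 0.0738). Rab34 and Rab28 had differences of 0.13 and -0.06 with overlapping groups. Of the 2 other members tested, Rab39b, a neuronal Rab, fell, with means of 12.7 ± 0.409 FPKM in control and 10.6 ± 0.343 FPKM with Nfia (difference -0.25, adjusted p = 0.00991) and Rab40c did not pass.

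The 10 members below the filter had means of 0.0378 to 0.772 FPKM over the 6 libraries. Besides the Rab27 genes these were Rab19, Rab20, Rab25, Rab26, Rab37, Rab40b, Rab42 and Rab44. In Rab40b the Nfia libraries lay below the control libraries, at 0.523, 0.415 and 0.819 against 0.867, 0.958 and 1.05 FPKM. In Rab37, a Rab of secretory granules, they lay above, at 0.319, 0.326 and 0.293 against 0.0186, 0.144 and 0.0814 FPKM, and with no filter on low values Rab37 was called higher. Rab42 was listed at 0 in all control libraries and at 0.0627, 0 and 0.182 FPKM with Nfia, so the groups overlapped.

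Of the proteins that run the Rab cycle and read it out, 108 genes in 5 lists were in the files and 89 were tested. Among these, 12 rose (13.5%) and 13 fell (14.6%). In the same fit 16.1% and 15.1% of all genes did, so these lists together stood near the background. Under upper-quartile scaling 9 rose and 16 fell, where 13.6% and 17.6% of all genes did. Without control replicate 3, Nfia replicate 2 or Nfia replicate 3, the number that rose was 6, 6 and 7. The shares of all genes that rose were then 11.2%, 10.5% and 13.8%. Without Nfia replicate 1 or 2 the number that fell was 8, where 12.2% and 10.2% of all genes fell.

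In the list of the common machinery 7 genes were tested. Rabggtb, a subunit of the enzyme that attaches the lipid anchor to Rab proteins, rose, with means of 65.7 ± 2.93 FPKM in control and 78.2 ± 5.80 FPKM with Nfia (difference 0.25, adjusted p = 0.0285), which was lost without control replicate 2 or 3 or Nfia replicate 1 or 2 (adjusted p = 0.0691 to 0.0851).

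Of the regulators and effectors of Rab3 and Rab27, 12 of 22 were tested, 2 fell (16.7%, near the 15.1% over all genes) and 0 rose. Madd, the exchange factor that activates Rab3, fell, with means of 15.4 ± 0.946 FPKM in control and 12.8 ± 0.535 FPKM with Nfia (difference -0.25, adjusted p = 0.0194). Wdr7, a partner of the Rab3-linked protein Dmxl2, fell, with means of 11.4 ± 0.453 FPKM in control and 9.73 ± 0.313 FPKM with Nfia (difference -0.21, adjusted p = 0.0219). Each of these calls ended in 4 of the 6 fits that left out 1 library. The effectors Rims1, Rims2, Rims3, Rims4 and Rph3a of the synaptic release machinery did not pass, with differences of -0.17 to 0.24. All 5 Sytl genes, with Mlph, Myrip, Exph5 and Unc13d, which include effectors of Rab27, were below the filter, as were the Rab27 genes.

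Among 24 other exchange factors, 5 rose (20.8%, against 16.1% of all genes) and 0 fell. Rin2, an activator of Rab5, rose, with means of 2.97 ± 0.0754 FPKM in control and 5.31 ± 0.0875 FPKM with Nfia (difference 0.67, adjusted p = 0.000626), followed by the Rab10 activators Dennd4a (0.36) and Dennd4b (0.31) and by Sbf2 (0.24) and Dennd2a (0.17). The calls of Dennd4b and Sbf2 each ended in 4 and that of Dennd2a in 5 of the 6 fits that left out 1 library.

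TBC proteins are a family with members that switch Rab proteins off. Of the 33 tested, 4 rose (12.1%) and 8 fell (24.2%), against 16.1% and 15.1% of all genes. Tbc1d4, which acts on Rab10 and Rab8a, rose, with means of 2.47 ± 0.174 FPKM in control and 5.99 ± 0.349 FPKM with Nfia (difference 1.01, adjusted p = 0.000394), a larger change than that of any Rab gene tested. Tbc1d14 (-0.30), Tbc1d16 (-0.35) and Tbc1d9 (-0.32) fell. Among 13 effectors of Rab5, Rab7 and Rab11, 2 rose and 2 fell (15.4% each), near the shares over all genes. The Rab5 effectors Eea1 (0.33) and Appl2 (0.42), both of early endosomes, rose. The Rab11 effectors Rab11fip2 (-0.27) and Rab11fip4 (-0.47) fell. Rab11fip3 (0.07) and Rab11fip5 (-0.11) did not pass, and Rab11fip1 was below the filter. Both Rab11 genes also fell, with the limits given above.

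**Figure D4:**
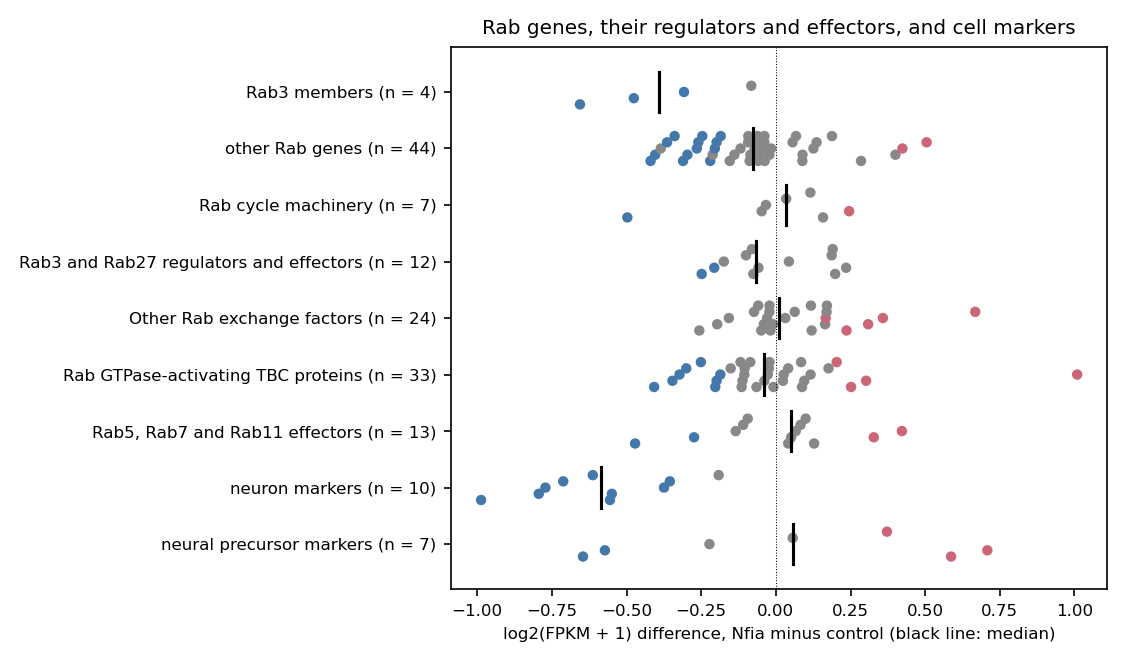
Log2(FPKM + 1) difference, Nfia minus control, of each tested gene in the Rab divisions, in 5 lists of regulators and effectors and in 2 marker lists, with blue for genes that fell, red for genes that rose, grey for the rest and a black line at the median. The neuron markers (median -0.58) and the Rab3 genes (median -0.39) lie furthest to the left, and Tbc1d4 at 1.01 is the point furthest to the right.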

How the data were processed

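The deposited files hold 1 FPKM value per gene symbol for each of the 3 control and 3 Nfia RNA-seq libraries. They have no header, so the unit was read from the values and from the tools named. Per the labels' protocols, poly(A) RNA was made into libraries with a directional kit. The submitters' processing notes name TopHat, Bowtie, SAMtools, Cufflinks and Cuffdiff and the build mm10. The sources used here do not give the role of each, the annotation, the use of strand or the handling of reads shared by paralogs. The ChIP samples are not analysed here.

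Values were used as deposited, without scaling. Genes whose mean reached 1 FPKM were compared on log2(FPKM + 1) with limma 3.58.1 in R 4.3.3 (eBayes with a variance trend, two-sided), with Benjamini-Hochberg adjustment over 12537 genes. The step was tested on simulated data. Paralog ratios used FPKM without a pseudocount and exact permutation tests in SciPy 1.17.1. Relative depth came from the steps between values of low genes.

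The members, lists and tests were chosen with earlier results of these data known. Named are all Rab3 and Rab27 genes, the other called Rab genes without overlap, the 6 most abundant others and the 3 nearest outside the threshold, and up to 4 called genes of each list of regulators, or all where 5 or fewer were called. Other members were named after their values were seen. A result among the regulators is not reported here. Alternatives were pseudocounts, filters, scalings, variance models, a replicate block and leaving out each library, and, added after seeing the data, leaving out replicate 1 of both groups.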

Additional observations from a re-analysis of the deposited data

How the results depend on the processing

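Of the 18 called Rab genes, 9 kept their call under all 16 alternatives chosen at the start: Rab3a, Rab3c, Rab30, Rab6b, Rab33a, Rab2a, Rab2b, Rab39b and Rab5b. The other 9 lost it under at least 1, and no named gene that was called changed direction. The 2 Rab genes that rose became 1 at a mean of at least 5 FPKM, where fewer genes are tested, 3 with no filter on low values (Rab31 and Rab37 added, Rab13 lost), 4 with library quality weights (Rab23 and Rab9 added) and 1 to 2 when 1 library was left out. Over all genes the shares that rose in these fits were 18.3%, 6.01%, 19.6% and 10.5% to 13.8%, against 16.1% in the main fit. With no filter on low values 10 in place of 16 Rab genes fell, and 10 to 15 fell when 1 library was left out. Over all genes the share that fell was then 5.94% and 10.2% to 13.0%, against 15.1% in the main fit. Upper-quartile scaling and quantile normalization each gave 19, where 17.6% and 17.4% of all genes fell. For regulators and effectors, 6 in place of 12 rose with no filter, and leaving out 1 library gave 6 to 11 that rose and 8 to 13 that fell. Leaving out replicate 1 of both groups, chosen after seeing the data, gave 7 Rab genes that fell and 1 that rose, and 5 regulators that rose and 7 that fell. Over all genes 8.73% fell and 9.55% rose in that fit. Rab2b and Rab39b then lost their calls (adjusted p = 0.0589 and 0.0622). That fit has fewer samples, and other causes were not tested. With the replicate number as a block, 16 Rab genes fell and 2 rose, and 10 regulators rose and 13 fell. Over all genes 15.3% fell and 17.0% rose with this block. The calls of Rab11a and Rab4b ended with this replicate block (adjusted p = 0.0622 and 0.0504). Deviations of same-numbered libraries had r = 0.03, -0.01 and 0.05 across genes, each below 0.1, so the numbers were not taken as pairs, although the mesenchyme markers were lowest in replicate 1 of both groups. With unknown absolute depth, no counting error can be given for Rab genes below 1 FPKM.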
